A study of Mus musculus with 3 samples.

Results

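Phosphorylation of serine 5 (Ser5) on the C-terminal repeats of RNA polymerase II (Pol_II) marks polymerase that has started to transcribe. The genes described here are 8 transcription factors of the macrophage lineage, chosen by name: Sfpi1 (PU.1), Cebpa, Cebpb, Cebpd, Runx1, Maf, Mitf and Tfec. Of the 8, 7 belong to the 22350 protein-coding genes on chromosomes 1 to 19 and X of the GENCODE M1 annotation of mm9, where Tfec is listed as Tcfec. Cebpd is listed there as a pseudogene, so it is measured in the same way but is not in the coding-gene background. Ser5 ChIP-Seq was made from bone marrow-derived macrophages of female Fvb mice (Fvb/Hsd in the study's methods), cultured with L929-conditioned medium to the 7th day of differentiation, either untreated or given LPS at 10 ng/ml for 2 h. The third library was input DNA from untreated macrophages, without precipitation. There was 1 library per condition, and the labels do not say how many mice a culture came from, so no test was possible, an excess of one library over another cannot be told apart from variation between cultures or precipitations, and every interval below is a 95% interval that covers counting error only.

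PU.1 is an Ets-family factor that binds together with C/EBP and RUNX factors at most macrophage enhancers and drives genes such as Csf1r, the receptor for the growth factor M-CSF. C/EBPα acts early in myeloid commitment, whereas C/EBPβ and C/EBPδ are known for the acute response to bacterial products. Runx1 is needed to form blood stem cells and opens the Sfpi1 locus, c-Maf drives Il10, and Mitf and Tfec belong to the MiT group with Tfeb and Tfe3, which switch on lysosome and osteoclast genes.

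The libraries held 7616771 (untreated), 6249819 (LPS) and 7533308 (input) tags on the chromosomes counted, and tags were 45, 30 and 36 bases long. A level is given in TPM per kb, where TPM is tags per 1000000 tags of the library. Tags of both Ser5 libraries were concentrated at peaks, with 49.8% (untreated) and 53.3% (LPS) in the peaks of either list, against 4.54% of the input, which has no peak list of its own. Levels relative to the input depend on this: scaling each library to its tags outside those peaks multiplies untreated to input ratios by 1.90 and LPS to input ratios by 2.05, and both values are given where a gene lay near the input. The label of the LPS library was checked with 4 genes that LPS is known to induce: Ccl5 went from 24 to 7801 tags, Cxcl10 from 55 to 4016, Il6 from 20 to 538 and Tnf from 1634 to 12948. All 10 macrophage markers had a Ser5 peak within 1 kb of the TSS when untreated and 9 of 10 after LPS. Their summed gene-body tags were 6.09 and 5.94 times the input, but these sums hide changes of single markers. After LPS 2 of them were at least 2 times higher, 5 at least 2 times lower and 3 between, with a median ratio of 0.602. Among coding genes 5.82% were higher and 11.2% lower by the same rule. The summed tags of the granulocyte, dendritic cell, B cell, T and natural killer cell, erythroid, mast cell, osteoclast, fibroblast and endothelial lists were between 0.241 and 1.13 times the input in both Ser5 libraries, and between 0.493 and 2.32 times with the scaling to tags outside peaks. Some genes of these lists did have a Ser5 peak within 1 kb of the TSS. In each Ser5 library these were 2 of 10 granulocyte, 1 of 6 osteoclast and 2 of 4 endothelial markers, and 0 in the other lists. The endothelial genes were the same in both libraries, the osteoclast gene was not, and the granulocyte genes were so only in part.

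All 8 genes carried Ser5 above the input at the annotated 5′ end of the gene. In the window of 1 kb on each side, Ser5 was at least 2 times the input at 8 of 8 genes in both libraries, where 71.9% (untreated) and 70.4% (LPS) of coding genes passed, and a peak lay in the window of 8 of 8 genes, against 48.0% and 45.9% of coding genes. Over the whole gene body, 6 of 8 were at least 2 times the input when untreated (37.6% of coding genes) and 7 of 8 after LPS (32.8%). The exceptions were Mitf at 1.80 (1.68 to 1.92) and Tfec at 0.978 (0.825 to 1.16) when untreated, and Runx1 at 1.79 (1.68 to 1.91) after LPS. Scaled to tags outside peaks, these values were 3.42 (3.19 to 3.66), 1.86 (1.57 to 2.21) and 3.66 (3.43 to 3.90). By either scaling Mitf and Tfec were the genes with the least gene-body Ser5 relative to the input before stimulation, and Runx1 the one with the least after it.

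The levels at the annotated 5′ end spread widely among the 8 genes in untreated cells. Cebpd was highest at 68.6 TPM per kb (64.5 to 72.9), followed by Sfpi1 at 43.6 (40.3 to 47.0), Maf at 37.5 (34.5 to 40.7) and Cebpb at 35.9 (32.9 to 39.0). Cebpa followed at 27.2 (24.6 to 29.9), Runx1 at 12.0 (10.3 to 13.9), Mitf at 6.10 (4.93 to 7.48) and Tfec at 2.56 (1.82 to 3.50). The counting intervals of Sfpi1 and Maf, and of Maf and Cebpb, overlapped. Each place rests on the first annotated start of the gene record. At the starts 13706 and 14390 bp downstream, Sfpi1 had 21.2 and 27.8 TPM per kb untreated and 31.7 and 45.8 after LPS. At those starts it would lie below Maf and Cebpb when untreated, so its place depends on the start used. After LPS the order was Cebpd at 110 TPM per kb, Cebpb at 53.9, Sfpi1 at 42.4, Maf at 24.9, Cebpa at 22.9, Mitf at 9.76, Tfec at 4.80 and Runx1 at 3.92. By its first start, Runx1 went from the 6th place to the last, where its interval (2.90 to 5.18) overlapped that of Tfec (3.66 to 6.18). At its start 128738 bp downstream, Runx1 had 33.0 TPM per kb untreated and 24.2 after LPS, above Mitf and Tfec in both libraries. The intervals of Maf and Cebpa overlapped too, and Cebpb passed Maf and, by this window, Sfpi1.

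**Figure D1:**
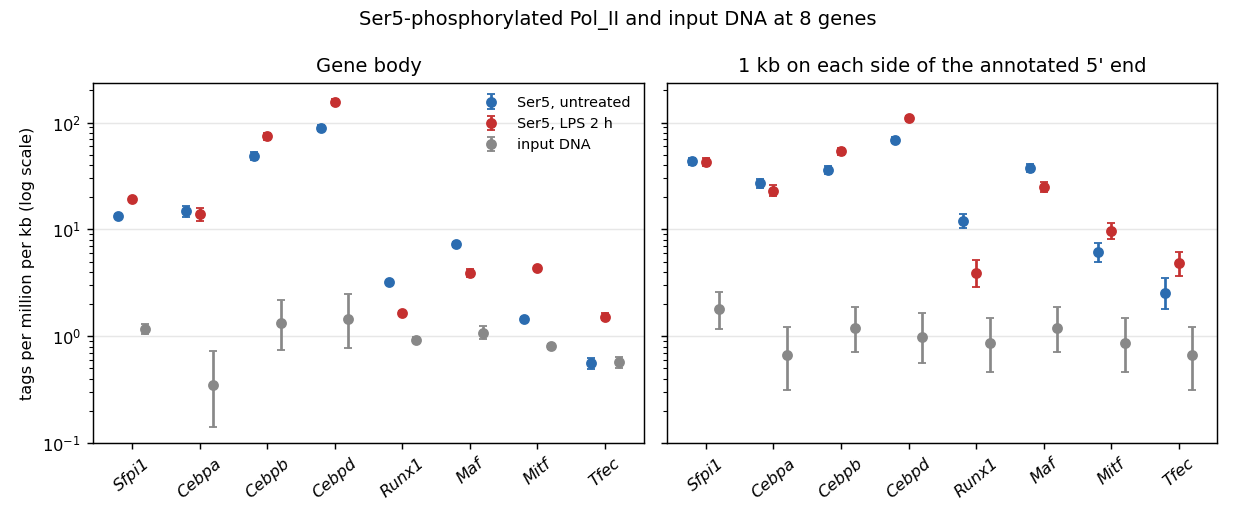
Ser5 and input levels in TPM per kb (log scale) at the 8 genes, over the gene body (left) and within 1 kb of the annotated 5′ end (right); points are single libraries and bars are 95% exact Poisson intervals. Cebpd is highest in both Ser5 libraries, while the gene body of Tfec has similar untreated and input levels on this scale, at 0.557 and 0.569 TPM per kb, and 1.53 after LPS.

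Over the gene body, both MiT genes, Mitf and Tfec, were at least 2 times higher after LPS, 2 of 8 where 5.82% of coding genes passed, and 0 of 8 were at least 2 times lower, where 11.2% passed. Runx1 at 0.522 (0.497 to 0.548) and Maf at 0.542 (0.492 to 0.596) lay just short of the limit of 0.5. At the annotated 5′ end, 0 of 8 were at least 2 times higher (5.61% of coding genes) and 1 of 8, Runx1, was at least 2 times lower (14.1%). The median ratio over coding genes was 0.873 for the gene body and 0.831 for the 5′ end, so a ratio of 1 lies above the middle of the coding genes. On that background Mitf stood at the 97.5th percentile of gene-body ratios, Tfec at 96.9, Cebpd at 92.2, Cebpb at 88.4, Sfpi1 at 86.7, Cebpa at 56.9, Maf at 14.4 and Runx1 at 12.7.

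**Figure D2:**
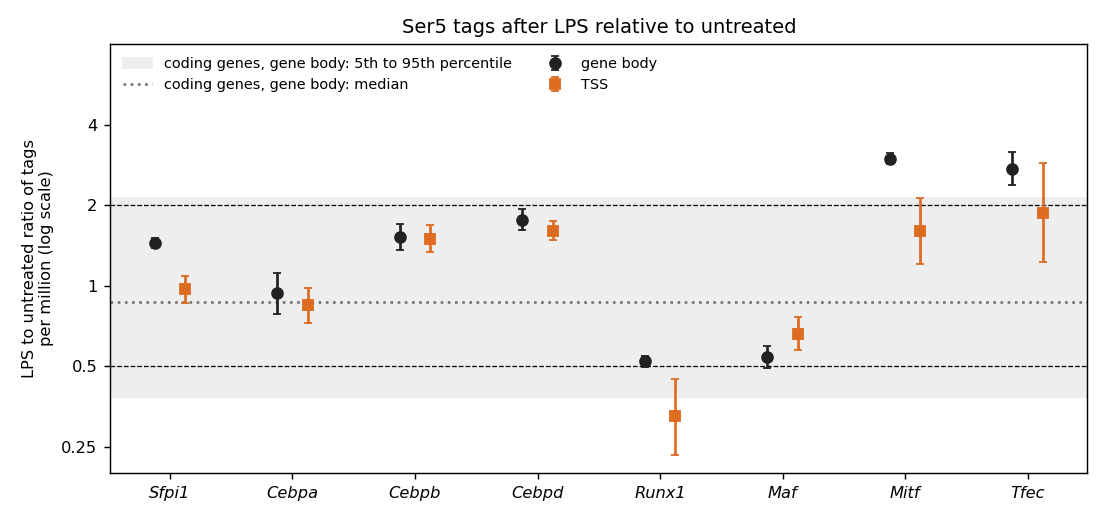
Ratio of LPS to untreated TPM (log scale) over the gene body (circles) and within 1 kb of the annotated 5′ end (squares), with 95% exact counting intervals; dashed lines mark 2 times higher and lower, the grey band holds the 5th to 95th percentile of coding genes and the dotted line their median of 0.873. Mitf and Tfec lie above the band by their gene bodies, and Runx1 lies lowest by its 5′ end.

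Mitf (ENSMUSG00000035158.8, chr6:97757052-97971352, + strand) is a gene of 214301 bp with 10 annotated transcripts, whose alternative first exons give forms that differ at the N-terminus, the M form of melanocytes starting nearest the 3′ end. A short pseudogene, Gm15531, lies inside it on the other strand. Its body held 2370 untreated, 5786 LPS and 1305 input tags, that is 1.45, 4.32 and 0.808 TPM per kb. The LPS library was 2.98 times higher (2.84 to 3.12). The excess covered the whole gene: in 10-kb bins from the 5′ end, 21 of 21 complete bins were at least 2 times higher after LPS, from 2.00 in the bin that starts at 10 kb to 4.39 in the one at 160 kb, with a median of 3.26. It ran on past the gene: the 5 kb after its end held 41 untreated, 108 LPS and 31 input tags, a ratio of 3.21 (2.22 to 4.72), and the bin that starts at 230 kb then held 4, 8 and 23. In untreated cells 16 of the 21 bins were above the input by their counting interval (21 with the scaling to tags outside peaks), and after LPS all 21 were by either scaling.

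The 5′ end of Mitf differed less between the libraries than its body. The window there held 93 untreated, 122 LPS and 13 input tags, 1.60 times higher after LPS (1.21 to 2.12), and this interval ended below that of the body. The first 1 kb held 2.28% of the gene-body tags when untreated (1.72 to 2.96) and 1.26% after LPS (0.990 to 1.58), against 0.467% for an even spread. The sites further down gave larger ratios on fewer tags. At the annotated starts 122741 bp downstream, 29 untreated and 81 LPS tags gave 3.40 (2.20 to 5.40), and at the last starts, 184734 bp downstream, 13 and 27 tags gave 2.53 (1.26 to 5.34) beside 10 of the input. No peak was called at these last starts in either library, whereas the 5′ end had a peak in both.

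The peak lists differed most at Mitf among the 8 genes. The body of Mitf overlapped 13 peaks when untreated and 162 after LPS, which covered 2.99% and 39.8% of its length. Of the 162 peaks, 156 lay wholly in introns and 11 overlapped an untreated peak, and their median score was 87.4 in lists that start at 50.0. All 13 untreated peaks touched the part before the second group of start sites, while 68 LPS peaks touched the part after it. The LPS peak with the highest score, chr6:97769993-97772185 in an intron 14037 bp from the 5′ end, held 139 untreated and 191 LPS tags, a ratio of 1.67 (1.34 to 2.10). A peak at chr6:97812308-97813224, 55714 bp from the 5′ end, held 4 untreated, 65 LPS and 7 input tags, a ratio of 19.8 (7.37 to 74.9); it has the largest ratio of the 8 highest-scoring LPS peaks and was picked after its values were seen.

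The first and the last RefSeq promoter of Mitf are shown because its 5′ end and its last promoter differed in Ser5. Each runs from 250 bases before to 50 after the start site and was placed on mm9 by 1 exact match; the letters are the reference genome's, not those of Fvb. Capitals mark matches on either strand to 10 short motifs. GAGGAAG is the core that PU.1 binds, TTGCNNAA that of C/EBP, TGTGGT that of RUNX, CACGTG and CATGTG are E-boxes of MiT factors and TGCTGA is a MAF half-site. GGGNNTTCC is the motif of NF-kB, TGANTCA that of AP-1, TGACGTCA the CRE and TATAAA the box for the TATA-binding protein. No matches overlapped each other in the promoters searched. The first promoter held 34 untreated, 46 LPS and 1 input tags, a ratio of 1.65 (1.04 to 2.65), and the last 0, 5 and 1, where a count of 0 allows up to 3.
Mitf first promoter, chr6:97756802-97757101, + strand: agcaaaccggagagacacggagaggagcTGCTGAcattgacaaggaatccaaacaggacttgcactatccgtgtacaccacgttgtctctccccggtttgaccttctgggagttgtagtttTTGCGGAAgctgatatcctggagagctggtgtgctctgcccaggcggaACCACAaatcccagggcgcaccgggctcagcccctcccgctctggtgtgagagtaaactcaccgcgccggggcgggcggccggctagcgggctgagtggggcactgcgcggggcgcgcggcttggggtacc
Mitf last promoter, chr6:97941527-97941826, + strand: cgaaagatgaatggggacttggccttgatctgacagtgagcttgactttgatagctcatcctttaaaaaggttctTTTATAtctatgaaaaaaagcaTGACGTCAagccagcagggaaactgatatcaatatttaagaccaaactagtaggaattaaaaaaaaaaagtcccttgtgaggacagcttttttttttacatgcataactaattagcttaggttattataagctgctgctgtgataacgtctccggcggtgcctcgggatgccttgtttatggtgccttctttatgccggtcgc
The first promoter, with 22 CpG and 62.7% G and C, matched the C/EBP motif (10.8% of 32851 RefSeq promoters do), the RUNX motif (16.8%) and the MAF half-site (19.5%). The last, with 8 CpG, matched the CRE (1.79%), the letters through which cAMP acts on the melanocyte form, and TATAAA (13.6%). A further promoter between them, not shown, held 9 untreated, 18 LPS and 2 input tags, a ratio of 2.44 (1.04 to 6.16). It also matched the C/EBP motif and the MAF half-site, so these matches are not particular to the first promoter. A match is a description of the letters and not of a bound site.

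Tfec (ENSMUSG00000029553.7, chr6:16783381-16848441, - strand) encodes the MiT member that is largely restricted to macrophages. Its body held 276 untreated, 621 LPS and 279 input tags, or 0.557, 1.53 and 0.569 TPM per kb. Untreated Ser5 was 0.978 times the input over the body as a whole, with an interval that includes 1, but 1.86 times (1.57 to 2.21) when scaled to tags outside peaks, so whether it exceeded the input depends on the scaling. The LPS library was 2.74 times the untreated one (2.38 to 3.17) and 2.68 times the input (2.33 to 3.10), or 5.49 times with the other scaling. The first 10 kb held more untreated tags than the other bins, with 142 untreated, 186 LPS and 78 input tags and a ratio of 1.60. Beyond it the bins held 20 to 28 untreated and 62 to 119 LPS tags, with ratios from 3.05 to 7.25. Over the 6 complete bins, 1 was above the input when untreated (2 with the scaling to tags outside peaks) and 6 were after LPS by either scaling.

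At the 5′ end itself Tfec held 39 untreated, 60 LPS and 10 input tags, 1.87 times higher after LPS (1.23 to 2.88). With 2 kb on each side the ratio was 1.24 (0.936 to 1.65), an interval that includes 1. The body overlapped 4 untreated and 10 LPS peaks, 2 of each shared. A peak 1767 bp into the gene went the other way, with 44 untreated and 24 LPS tags and a ratio of 0.665 (0.387 to 1.12), an interval that includes 1. In the bin with the highest ratio, 4 peaks of the LPS list, at 45063, 44501, 44039 and 42286 bp from the 5′ end, held 0, 0, 3 and 0 untreated tags, 14, 8, 16 and 12 LPS tags and 1, 0, 1 and 4 input tags. Those peaks were called from the LPS tags in a bin picked by its ratio, so their direction follows in part from that choice. Past the gene end the next 5 kb held 8 untreated, 42 LPS and 20 input tags. The promoter is shown because untreated Ser5 was 3.86 times the input at the 5′ end (7.34 with the other scaling) and nearer to it over the body.
Tfec promoter, chr6:16848392-16848691, - strand: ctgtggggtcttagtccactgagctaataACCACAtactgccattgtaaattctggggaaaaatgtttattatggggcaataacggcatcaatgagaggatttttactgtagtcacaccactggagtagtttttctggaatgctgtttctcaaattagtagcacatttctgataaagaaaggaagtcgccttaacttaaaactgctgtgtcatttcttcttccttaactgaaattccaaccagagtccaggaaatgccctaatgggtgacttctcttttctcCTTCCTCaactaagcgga
It matched the RUNX motif and, 33 bases after the start site, the PU.1 core (13.6% of promoters), and held 14 untreated, 13 LPS and 1 input tags.

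**Figure D3:**
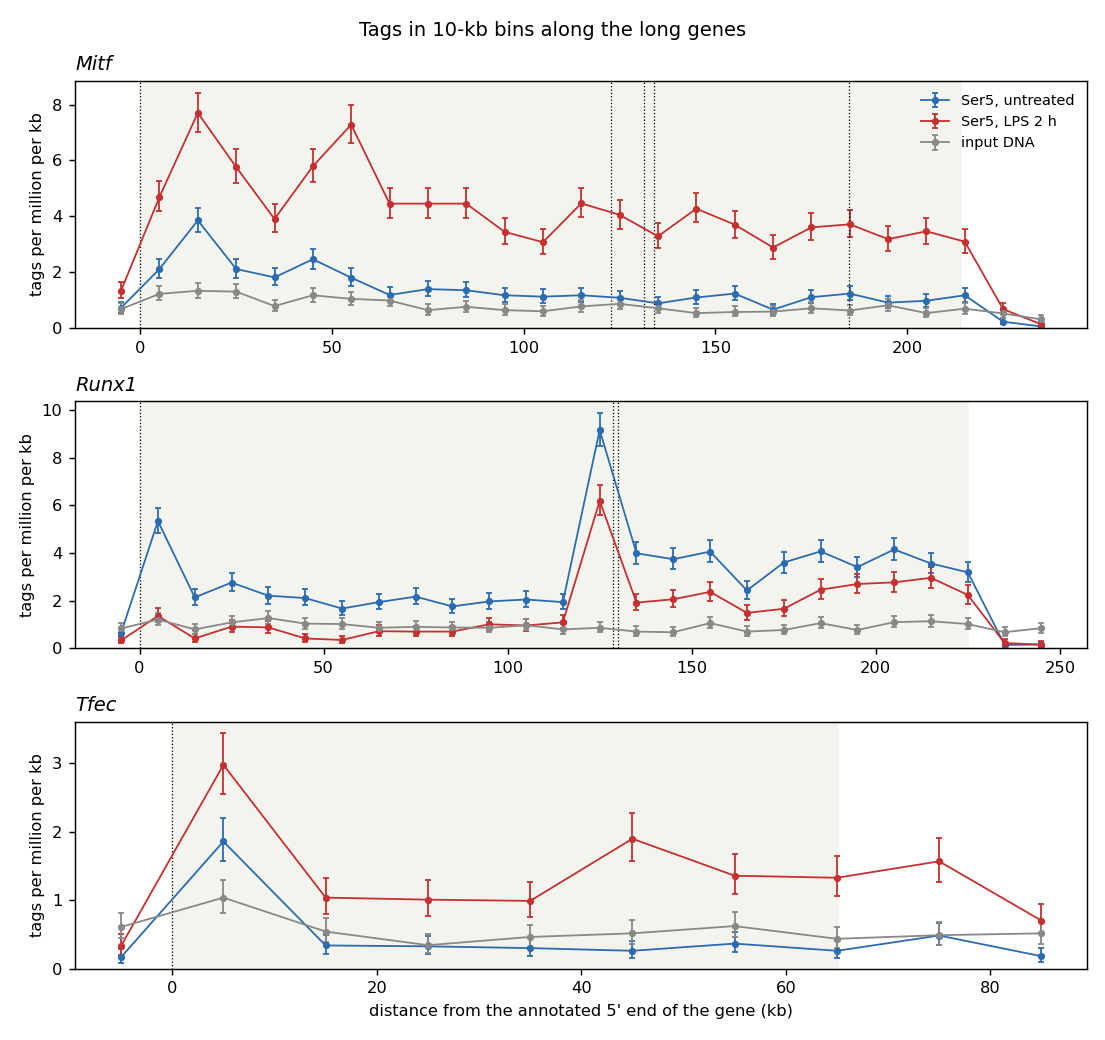
Levels in TPM per kb in 10-kb bins along Mitf, Runx1 and Tfec, by distance from the annotated 5′ end (kb); lines join single-library values, bars are 95% exact Poisson intervals, the shaded part is the gene and dotted lines are annotated start sites. Inside the gene, Ser5 after LPS is higher in every bin of Mitf and Tfec and lower in every bin of Runx1, where on this scale it runs close to the input over much of the part before the second group of start sites.

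Runx1 (ENSMUSG00000022952.9, chr16:92601712-92826311, - strand) spans 224600 bp and is read from a distal promoter at its 5′ end and a proximal one inside the gene, which give proteins with different N-termini. The lincRNA Gm16801 overlaps it on the other strand. Its body held 5465 untreated, 2341 LPS and 1579 input tags, or 3.19, 1.67 and 0.933 TPM per kb, a ratio of 0.522. All 22 complete bins of 10 kb were lower after LPS, 12 of them at least 2 times, and the counting interval lay below 1 in 21 of 22. The ratio was lower before the proximal promoter than after it. From the 5′ end to the base before the proximal start, 128737 bp downstream, there were 2630 untreated, 856 LPS and 939 input tags, a ratio of 0.397 (0.367 to 0.429). From the proximal start to the end there were 2835, 1485 and 640 tags and a ratio of 0.638 (0.599 to 0.680). After LPS the first part was 1.10 times the input (1.00 to 1.21) and the second 2.80 times (2.55 to 3.07). Scaled to tags outside peaks they were 2.25 (2.05 to 2.47) and 5.72 times (5.21 to 6.29), so the first part was near the input only by the total scaling. By counting interval, 10 of the 22 bins were above the input after LPS by the total and 18 by the other scaling. The bins that start at 10, 30, 40 and 50 kb were below it by the total, and 0 bins were by the other scaling. The first part includes Ser5 just upstream of the proximal start, where the bin from 120 to 130 kb held 387 LPS and 65 input tags. Its ratios are thus averages over unlike stretches.

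The start sites of Runx1 differed likewise. At the distal start the window held 183 untreated, 49 LPS and 13 input tags, a ratio of 0.326 (0.233 to 0.449). Of the coding genes with enough tags, 4.51% had a ratio below it. At the proximal start there were 503, 303 and 11 tags and a ratio of 0.734 (0.635 to 0.848), near the coding median of 0.831. The starts 130056 bp downstream, just past the proximal one, held 162 and 68 tags, a ratio of 0.512 (0.380 to 0.683). The distal and proximal starts had intervals that did not overlap. Peaks in the body numbered 77 when untreated and 24 after LPS and covered 19% and 4.93% of it; 19 of the 24 overlapped an untreated peak.
Runx1 distal promoter, chr16:92826270-92826569, - strand: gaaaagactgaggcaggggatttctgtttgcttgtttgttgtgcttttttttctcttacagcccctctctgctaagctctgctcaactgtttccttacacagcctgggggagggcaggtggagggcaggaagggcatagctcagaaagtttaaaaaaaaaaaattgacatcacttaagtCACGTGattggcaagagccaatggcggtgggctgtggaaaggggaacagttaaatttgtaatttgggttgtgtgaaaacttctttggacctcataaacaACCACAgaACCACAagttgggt
Runx1 proximal promoter, chr16:92697525-92697824, - strand: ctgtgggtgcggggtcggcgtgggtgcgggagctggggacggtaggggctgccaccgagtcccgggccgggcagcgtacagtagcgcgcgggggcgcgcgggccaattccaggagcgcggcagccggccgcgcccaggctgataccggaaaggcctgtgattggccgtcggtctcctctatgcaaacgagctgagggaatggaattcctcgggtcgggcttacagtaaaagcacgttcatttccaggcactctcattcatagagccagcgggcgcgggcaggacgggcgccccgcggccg
Both are shown because their Ser5 ratios differed. The distal promoter held 2 CpG and matched the RUNX motif at 2 places and the E-box CACGTG (7.15% of promoters), while the proximal one, with 35 CpG, matched none of the motifs searched. Their tags were 53 untreated and 16 LPS at the first, a ratio of 0.368 (0.196 to 0.654), and 233 and 155 at the second, a ratio of 0.811 (0.657 to 0.998).

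Maf (ENSMUSG00000055435.6, chr8:118206842-118231694, - strand) was lower after LPS by a similar factor. Its body held 1370 untreated, 609 LPS and 202 input tags, or 7.24, 3.92 and 1.08 TPM per kb, a ratio of 0.542. The 5′ end held 572 untreated, 311 LPS and 18 input tags, a ratio of 0.663 (0.575 to 0.762) whose interval overlapped that of the body, and the second annotated start 698 bp downstream gave 0.668 (0.584 to 0.762). The bins of 5 kb gave 0.645 at the start, then 0.466, 0.364 and 0.396. The processed transcript Gm15655 overlaps the first part of Maf on the other strand, and ChIP tags do not show which strand was read.

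The lowest ratios at Maf lay inside the gene and past its end. An untreated peak of 1763 bp at chr8:118220342-118222104, in an intron 10471 bp from the 5′ end, held 153 untreated, 30 LPS and 18 input tags, a ratio of 0.239 (0.156 to 0.355), and overlapped no peak of the LPS list. Past the gene end, the next 5 kb held 127 untreated, 25 LPS and 25 input tags, a ratio of 0.240 (0.150 to 0.371). Untreated Ser5 was 5.02 times the input there (3.25 to 8.06), and after LPS it was 1.21 times (0.664 to 2.19), an interval that includes 1, or 2.47 times (1.36 to 4.48) when scaled to tags outside peaks. A further untreated peak 57377 bp from the 5′ end, outside any coding gene, held 42 untreated, 4 LPS and 12 input tags, a ratio of 0.116 (0.0302 to 0.320). All 6 untreated peaks downstream of Maf within 50 kb lacked an overlapping LPS peak. The peaks named here come from the untreated list, so low ratios over them follow in part from that choice.

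Sfpi1 (ENSMUSG00000002111.8, chr2:90922547-90955913, + strand) had 2 blocks of dense Ser5. The gene record begins with a transcript whose start lies 14390 bp upstream of the third annotated start; an upstream regulatory element that PU.1 and RUNX1 bind is known in this stretch. The body held 3388 untreated, 4007 LPS and 293 input tags, or 13.3, 19.2 and 1.17 TPM per kb, a ratio of 1.44 (1.38 to 1.51). The window at the 5′ end, at the start of the first block, held 664 untreated, 530 LPS and 27 input tags, a ratio of 0.973 (0.866 to 1.09). The untreated peak over the whole first block held 1564, 1484 and 79 tags, a ratio of 1.16 (1.08 to 1.24). At the second start, 13706 bp downstream, there were 323 and 396 tags and a ratio of 1.49 (1.29 to 1.74), and at the third 424 and 573 tags and 1.65 (1.45 to 1.87).

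Sfpi1 thus had a higher ratio downstream than upstream of its second start. From the 5′ end to the second start the ratio was 1.11 (1.04 to 1.19), and from there to the gene end 1.84 (1.72 to 1.96), on 1541 untreated and 2324 LPS tags. The complete 5-kb bin with the highest ratio, which starts 25 kb from the 5′ end, went from 186 to 350 tags, 2.29 times (1.91 to 2.75). Each block was 1 long peak in both lists, of 5963 bp (untreated) and 7073 bp (LPS) at the first and of 3760 bp and 4049 bp at the second. Between them, an untreated peak of 1996 bp held 142 untreated and 68 LPS tags, a ratio of 0.584 (0.431 to 0.785), against the direction of the gene. The 5 kb past the gene end held 346 untreated, 465 LPS and 27 input tags. This stretch includes the start of the cardiac gene Mybpc3, which lies 2388 bp past the end of Sfpi1 on the same strand. An untreated peak of 2035 bp over that start held 238, 335 and 16 tags, a ratio of 1.72 (1.45 to 2.03). These tags are among those of the 5 kb, so the counts are not separate.

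**Figure D4:**
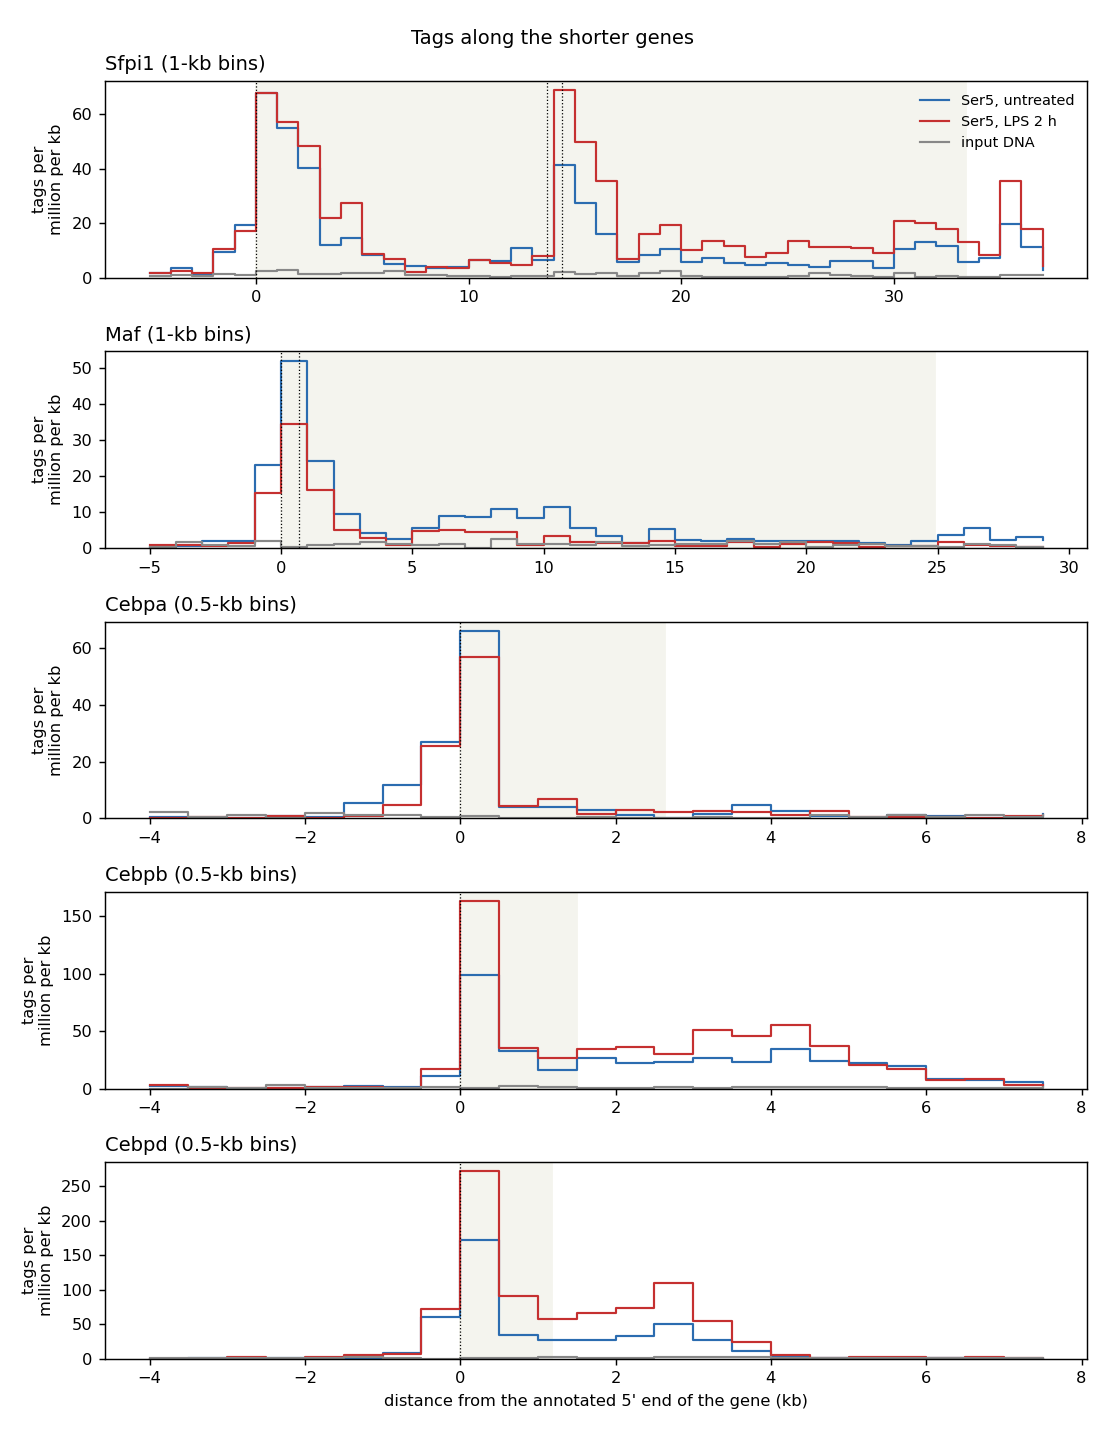
Levels in TPM per kb along Sfpi1 and Maf in 1-kb bins and along Cebpa, Cebpb and Cebpd in 0.5-kb bins, by distance from the annotated 5′ end (kb); lines are single libraries, the shaded part is the gene and dotted lines are annotated start sites. The first 1 kb of Sfpi1 is alike in the 2 Ser5 libraries at 67.9 and 67.6 TPM per kb and the second block is higher after LPS, while at Cebpb and Cebpd Ser5 runs on for several kb past the annotated end.

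**Figure D5:**
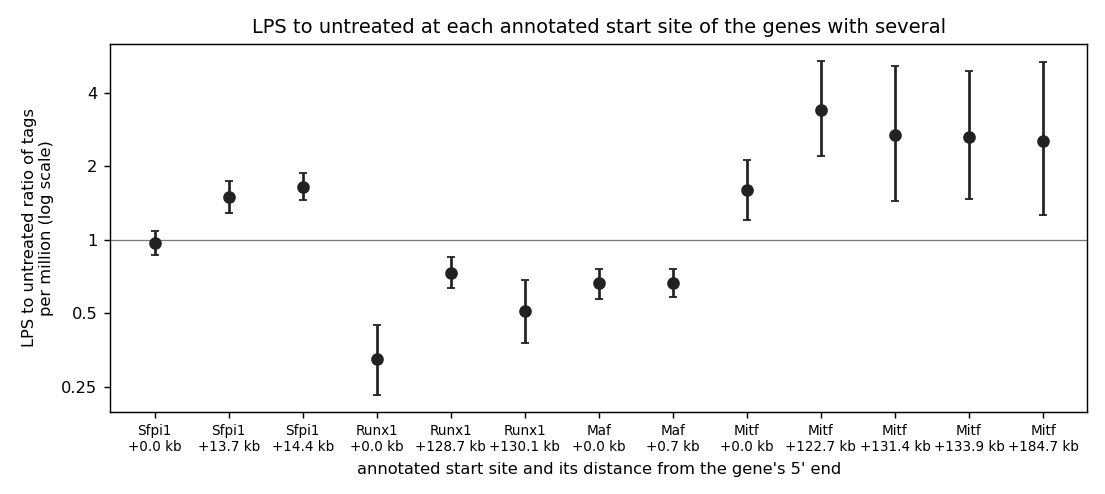
Ratio of LPS to untreated TPM (log scale) within 1 kb of each annotated start site of the genes with several, with 95% exact counting intervals; labels give the distance from the gene's 5′ end (kb). The ratio is lowest at the distal start of Runx1 at 0.325 and highest at the second starts of Mitf at 3.40.

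The 3 C/EBP genes are short and have no introns, and 2 of them were higher after LPS. Cebpd (ENSMUSG00000071637.4, chr16:15887379-15888559, + strand) held 797 untreated, 1154 LPS and 13 input tags over 1181 bp, a ratio of 1.76 (1.61 to 1.93). Cebpb (ENSMUSG00000056501.3, chr2:167514415-167515918, + strand) held 561, 701 and 15 tags over 1504 bp, a ratio of 1.52 (1.36 to 1.70). Cebpa (ENSMUSG00000034957.9, chr7:35904312-35906945, + strand) held 297, 228 and 7 tags over 2634 bp, a ratio of 0.936 (0.784 to 1.12). Cebpb and Cebpd had overlapping intervals, and neither reached that of Cebpa. Their windows at the 5′ end share most tags with the bodies and gave 1.60 (1.48 to 1.74), 1.5 (1.34 to 1.68) and 0.845 (0.724 to 0.985).

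At Cebpd the region past the gene differed more than the gene. The 5 kb past its end held 691 untreated, 1213 LPS and 58 input tags, a ratio of 2.14 (1.95 to 2.35). One LPS peak of 5365 bp covered the gene and ran into this stretch, where the untreated list had a peak of 2933 bp and a second of 1877 bp. The end of 2310008H04Rik, read toward Cebpd from the other strand, lies 761 bp away, so the tags there cannot be assigned to either gene. At Cebpb the 5 kb past the end held 874 untreated tags at 24 times the input and 34.9 times after LPS, in a peak of 4567 bp (untreated) or 4501 bp (LPS). At Cebpb the ratio past the end was 1.45 (1.33 to 1.59), close to that of the gene. A record of Tmem189 on the other strand starts inside Cebpb. The nearest other coding record, also named Tmem189, begins 27419 bp away and was lower after LPS at 0.669 (0.616 to 0.726).

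Cebpa, unlike Cebpb and Cebpd, had little Ser5 past its end. Of its gene-body tags, 89.9% (85.9 to 93.1) were in the first 1 kb when untreated and 84.2% (78.8 to 88.7) after LPS, and the rest of the body held 30 untreated and 36 LPS tags. The next 5 kb held 50 untreated, 38 LPS and 24 input tags. Enhancers of Cebpa in myeloid cells are known downstream of the gene. Within 50 kb downstream, outside coding genes, lay 3 untreated peaks and 1 LPS peak, of which 0 overlapped a peak of the other list. The LPS peak at chr7:35912745-35913167, 8644 bp from the 5′ end, held 7 untreated, 46 LPS and 2 input tags, a ratio of 8.01 (3.59 to 21.0). The untreated peaks, 3895, 7960 and 37284 bp from the 5′ end, held 22, 8 and 43 untreated and 7, 4 and 17 LPS tags. Their ratios were 0.388 (0.140 to 0.940), 0.609 (0.134 to 2.27) and 0.482 (0.258 to 0.863). Each of these downstream peaks was called in 1 library alone and its ratio uses the same tags. The direction of the ratios was therefore largely set by the choice of peaks, which the intervals do not take into account.
Cebpb promoter, chr2:167514165-167514464, + strand: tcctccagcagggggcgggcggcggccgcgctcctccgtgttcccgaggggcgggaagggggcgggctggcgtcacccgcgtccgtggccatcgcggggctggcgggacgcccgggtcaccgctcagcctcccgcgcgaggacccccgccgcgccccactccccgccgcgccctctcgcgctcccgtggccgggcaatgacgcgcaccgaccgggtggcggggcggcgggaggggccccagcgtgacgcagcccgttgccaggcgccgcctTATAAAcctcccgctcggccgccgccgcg
Cebpa promoter, chr7:35904062-35904361, + strand: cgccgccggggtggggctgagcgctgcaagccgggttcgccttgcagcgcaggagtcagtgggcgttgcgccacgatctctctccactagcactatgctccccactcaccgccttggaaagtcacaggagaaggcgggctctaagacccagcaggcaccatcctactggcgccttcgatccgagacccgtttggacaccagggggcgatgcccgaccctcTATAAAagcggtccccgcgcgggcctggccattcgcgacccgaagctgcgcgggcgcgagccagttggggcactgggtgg
These promoters are shown as those of a gene higher after LPS and of one that was not. Both held TATAAA, which begins 22 bases after the annotated start in Cebpb and 30 bases before it in Cebpa. They held 50 and 29 CpG, against a median of 7.00 over all RefSeq promoters, and matched none of the other motifs.

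Among the partners and paralogues of the 8 genes, 17 of 19 listed symbols were found and all 17 had 10 or more tags. The other 2, Tfeb and Tfe3, stand in the annotation under their older symbols Tcfeb and Tcfe3, which were listed too. By gene body 1 was at least 2 times higher, Nrl, with 6 untreated, 10 LPS and 15 input tags, 3 were at least 2 times lower and 13 lay between, where 5.82% of coding genes were higher and 11.2% lower, and the median was 0.735 beside 0.873 for all coding genes. The higher count is near the background. The 2 lowest with at least 50 tags were Tcfeb, the MiT factor of lysosome genes, at 0.281 (0.245 to 0.320) and Spib, a B-cell relative of PU.1, at 0.339 (0.195 to 0.562). The 2 highest were Mafk at 1.5 (1.30 to 1.73) and Maff at 1.25 (1.03 to 1.52), small Maf proteins that lack a transactivation domain. The third of the genes at least 2 times lower was Irf8, a partner of PU.1, from 1428 to 481 tags. The MiT members thus differed among themselves, with Mitf and Tfec higher, Tcfeb lower and Tcfe3 at 0.911 (0.809 to 1.03).

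Of 32 genes described as targets of the factors, 9 were at least 2 times higher, 10 at least 2 times lower and 13 between, with a median of 0.771. Both shares were above the 5.82% and 11.2% of coding genes, but the targets were chosen with earlier results known. The list holds Il6, which also served to check the LPS label, and other inflammatory genes. The higher share therefore follows in part from the choice of genes. The highest were Il12b at 80.7 (44.8 to 162) and Ptgs2 at 51.7 (34.3 to 82.0), inflammatory genes, and the lowest Gpnmb at 0.0914 (0.0696 to 0.118) and Itgam at 0.229 (0.194 to 0.269). Gpnmb is known as a target of Mitf, and Itgam, a subunit of the integrin Mac-1, as one of PU.1. Of 37 other blood-lineage factors 36 were found, with 4 higher, 5 lower and 27 between and a median of 0.805, beside the 5.82% and 11.2% of coding genes; the lower share was near that background and the higher one rests on 4 genes. The extremes there were Ikzf1 at 3.0 (2.84 to 3.17), Ets2 at 2.38 (2.24 to 2.52), Fli1 at 0.339 (0.313 to 0.367) and Klf1 at 0.367 (0.217 to 0.599).

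The coding genes nearest in pattern were found over 4 values each, the body and 5′-end levels of both Ser5 libraries on a log2 scale after adding 0.1 TPM per kb. They were Btg1 for Sfpi1 (distance 0.329, where 0 is an identical pattern), Rpl9 for Cebpa (0.204), Gm10762 for Cebpb (0.483), Tmsb4x for Cebpd (0.325), 4632428N05Rik for Runx1 (0.30), Fasn for Maf (0.251), Arrdc4 for Mitf (0.25) and Nmi for Tfec (0.401). The LPS tags were shorter than the untreated ones, and in the 8 gene bodies 91.8% to 100% of start positions gave a 30-base sequence that occurs once in mm9, against 95% to 100% for 45 bases. The first share was 96.7% or more of the second at every gene body and 96.1% or more at every 5′ end.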

How the data were processed

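The authors precipitated chromatin with an antibody to Ser5-phosphorylated Pol_II, trimmed the 76-base reads, used Bowtie to place them on mm9 (unique hits, up to 2 mismatches) and called peaks for each Ser5 library against the input with MACS, whose p-value cut-off was 1e-05; versions are not given in the sources used here. The study's methods give the tag lengths of the 2 Ser5 libraries the other way round from the deposited files. Its methods name LPS with γIFN for the ChIP-Seq of total Pol_II, and several figure captions name both too. For the Ser5 libraries the study's text names LPS, as the labels do, and does not mention γIFN. The deposited tag files hold single tags, identical ones included, and the deposited peak lists a MACS score per peak (−10*log10 p).

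Tags were counted by their 5′ end in gene bodies and within 1 kb of the annotated 5′ end (GENCODE M1, on the same assembly) and divided by the library's total over chromosomes 1 to 19 and X. A difference was described by a rule of size, at least 2 times with 10 or more tags over both Ser5 libraries. Against the input, the 10 tags were those of the Ser5 library and the input. Shares of coding genes are of those with enough tags, except for peaks, where all coding genes count. Intervals are exact: Poisson for counts, conditional on the sum for ratios and binomial for shares. A count of 0 was set to 3 for ratios. A ratio over a peak uses the tags that called the peak, so a peak found in only 1 list tends toward that library. The text names the 8 genes, 4 LPS-induced genes, the 2 highest and 2 lowest of each list among genes with at least 50 tags, the nearest gene in pattern and neighbours; Irf8, Nrl, Tcfe3 and single peaks were chosen after their values were seen. Intervals were computed with scipy 1.17.1 under Python 3.11.15, and counting, overlaps and intervals were tested on simulated data. Promoters of 5 of the 8 genes were in the RefSeq table of GRCm38.p6. The genes and lists were chosen with earlier results of these data known.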

Additional observations from a re-analysis of the deposited data

How the results depend on the processing

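With 1 library per condition no replicate could be left out, and the intervals say nothing about the spread between cultures or precipitations. No paired analysis was possible because each condition has 1 library. Counting identical tags once, scaling to tags outside the peaks of both lists, moving tags 75 bp downstream, other windows of 500 bp or 2 kb and leaving out the first 1 kb of the body were tried. Of 78 ratios recomputed for single genes, 67 stayed within the counting interval of the reported value and 11 moved out of it. Of those whose reported interval excludes 1, 0 crossed 1, but some of their recomputed intervals came to include it. At the 5′ end, Tfec was 1.24 (0.936 to 1.65) with the window of 2 kb. Cebpa there was 0.967 (0.802 to 1.17) with identical tags counted once. It was 0.909 (0.779 to 1.06) scaled to tags outside peaks and 0.888 (0.754 to 1.05) with 500 bp. In all, 8 ratios crossed 1, at Cebpa over the body (0.936 reported) and Sfpi1 at the 5′ end (0.973), both with reported intervals that include 1. Cebpa was 1.13 (0.909 to 1.41) with identical tags counted once, 1.01 scaled to tags outside peaks and 1.46 (0.876 to 2.46) without the first 1 kb; the values of Sfpi1 above 1 ran from 1.01 (2 kb) to 1.2 (1.11 to 1.31, every annotated start). Mitf and Tfec were at least 2 times higher over the body under each that applies to the body. Leaving out the first 1 kb made 1 gene, Maf, at least 2 times lower over the body (0.493) instead of 0. At the 5′ end, scaling to tags outside peaks made 1 gene, Tfec, at least 2 times higher (2.02) instead of 0; it multiplies LPS to untreated ratios by 1.08, untreated to input ratios by 1.90 and LPS to input ratios by 2.05. The same scaling put 7 instead of 6 untreated and 8 instead of 7 LPS gene bodies at 2 times the input, adding Mitf and Runx1. Using every annotated start made 1 gene, Mitf, at least 2 times higher (2.19), and 0 instead of 1 at least 2 times lower, with Runx1 at 0.592. For segments, flanks, bins and marker lists this scaling was added after the data were seen. It took summed marker lists from below to at or above the input: granulocyte 1.52 (untreated) and 1.12 (LPS), dendritic cell 1.47 and 1.53, erythroid 1.40 (untreated), osteoclast 1.41 (untreated) and fibroblast 1.00 (LPS). A minimum of 50% of the peak inside the region, a score of at least 100 and dropping the minimum of tags moved no count by over 1.5 times.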

Other observations

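The coding genes that flank Tfec were also higher after LPS. Tes, 166708 bp away, went from 290 to 541 gene-body tags, a ratio of 2.27 (1.97 to 2.63), and Mdfic, 1031212 bp away on the other side, from 956 to 2136, a ratio of 2.72 (2.52 to 2.94). Within 1 kb of their 5′ ends the ratios were 1.41 for Tes, on 127 untreated and 147 LPS tags, and 1.22 for Mdfic, on 221 tags in each library. Both genes lie far enough away that their bodies share no tags with Tfec. The neighbours of Mitf were at 1.34 (1.27 to 1.41) for Frmd4b and 1.72 (1.19 to 2.51) for Gm765, of which the second had 51 untreated, 72 LPS and 363 input tags. The neighbours of Runx1 were at 1.07 (0.712 to 1.59) for Clic6 and 0.724 (0.607 to 0.862) for Setd4.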
